A study of Mus musculus with 4 samples.

Results

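Checkpoint receptors and the factor Tox were followed across lymphocytes of the mouse mammary gland. The 6 genes were Pdcd1, Lag3, Tigit, Havcr2, Tox and Cd200r4, chosen by name, of 55253 genes matched between both gene libraries. Raw UMIs, that is counts of single captured mRNA molecules, were read in 5 gates set on other genes. A T cell was a cell with at least 1 Cd3e UMI. The Foxp3 gate held T cells with Foxp3 and no Cd8a or Cd8b1, and the Cd4 gate held T cells with Cd4 and none of those 3 genes. The Cd8b1 gate held T cells with Cd8b1 and no Cd4 or Foxp3, and the Cd8a-alone gate held T cells with Cd8a and none of Cd8b1, Cd4 and Foxp3. The Ncr1 gate held cells with Ncr1 and no UMI of Cd3e, Cd3d or Cd3g. All 6 genes were measured in both libraries.

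CD45+ cells, the hematopoietic cells of the gland, came in 2 pooled droplet libraries, called the earlier and the later after the years in their names. Hash tags, which are antibodies that carry a DNA barcode, marked the sample of each cell. The earlier library held samples named Nulliparous, Gestation and Lactation, and the later library held Gestation, Lactation, Involution, Regression, Balb/c (another mouse strain) and GF (germ-free). A further tag, HT2, was present in both. Its sheets name it Germ-free while the title of the earlier gene library lists involution and no germ-free sample, so it is called HT2 here. The sources used here give no strain for the other animals, no age, no day within a stage, no count of animals behind a tag and no stage for Balb/c and GF. Each name has 1 sample per library, so p-values measure only the spread between these samples, which may be technical.

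The earlier library held 56300251 UMIs and the later library 90642638, with medians of 1599 and 3049 UMIs per kept cell. After tag and doublet calls 15145 and 14563 cells remained, of which 3351 and 4845 were T cells and 1347 and 1314 fell in the Ncr1 gate. A further 2005 and 2208 T cells showed no UMI of the 4 sorting genes and 10 and 70 showed conflicting ones, so they entered no gate. The libraries shared 139 cell barcodes. Markers ran with the gate labels, in part by construction. The Ncr1 gate excludes Cd3d and Cd3g, and the NK markers include its entry gene Ncr1, so these sums are no independent check. The summed T cell markers (Cd3d, Cd3g, Trac, Trbc2, Lck) stood between 2346 and 4587 CPM (UMIs per 1000000 UMIs of the gate) in all T cell sums and between 392 and 586 in the Ncr1 sums. The summed NK markers stood between 1615 and 3222 in the Ncr1 sums and between 319 and 963 in the Cd8a-alone sums. Gamma-delta T cell markers stood between 85.7 and 814 CPM in the Cd8a-alone sums, and that gate is not taken as a single T cell type. A cell with both CD8 chains whose Cd8b1 was missed also falls in it.

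Checkpoint receptors are surface proteins that dampen lymphocytes after activation. PD-1 (Pdcd1) recruits the phosphatase SHP-2 when it binds PD-L1 or PD-L2, LAG-3 binds MHC class II, TIGIT competes with the activating receptor CD226 for nectin family ligands, and TIM-3 (Havcr2) binds galectin-9 and is also made by myeloid cells. Tox is a nuclear HMG-box protein needed for T cell development, for innate lymphoid cells and for the exhausted state of chronically stimulated CD8 T cells. Cd200r4 is a mouse relative of the inhibitory CD200 receptor that lacks an inhibitory tail and pairs with the adaptor DAP12, the product of Tyrobp.

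Cd200r4 lies in a group of related genes, and the sequences before 3 of their starts are shown. A link between these sequences and the levels of the genes was not tested. Each run is the 250 bases before a RefSeq start on the plus strand of GRCm38.p6, with matches to any of 5 motifs in capitals. The runs are chr16:44820478-44820727 for Cd200r4, chr16:44866847-44867096 for Cd200r2 and chr16:44943428-44943677 for Cd200r3. The whole Cd200r4 gene spans chr16:44811650-44839150, so its run lies inside the gene, before an internal start.
Cd200r4: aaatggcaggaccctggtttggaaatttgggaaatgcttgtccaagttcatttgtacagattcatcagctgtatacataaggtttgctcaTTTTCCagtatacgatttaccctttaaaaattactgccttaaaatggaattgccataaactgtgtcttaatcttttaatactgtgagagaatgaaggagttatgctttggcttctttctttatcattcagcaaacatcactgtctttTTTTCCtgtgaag
Cd200r2: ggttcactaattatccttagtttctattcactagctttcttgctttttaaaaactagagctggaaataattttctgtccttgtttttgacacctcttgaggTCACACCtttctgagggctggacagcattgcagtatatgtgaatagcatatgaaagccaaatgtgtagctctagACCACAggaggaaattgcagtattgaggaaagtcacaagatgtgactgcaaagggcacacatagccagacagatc
Cd200r3: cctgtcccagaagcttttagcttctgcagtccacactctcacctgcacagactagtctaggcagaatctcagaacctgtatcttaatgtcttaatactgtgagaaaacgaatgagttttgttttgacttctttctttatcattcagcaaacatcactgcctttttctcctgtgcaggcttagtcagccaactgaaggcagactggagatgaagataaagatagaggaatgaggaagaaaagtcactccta
The motifs were searched on both strands as GGAAAA (core of NFAT sites, in 20.4% of 32851 windows of the same length), TGANTCA (AP-1, 6.75%), TGTGGT (Runx, 14%), GGTGTGA (T-box, 3.33%) and CTTTGAT (TCF and LEF, 3.21%). Cd200r4 had 2 matches to the NFAT core, beginning 160 and 13 bases before that internal start. Cd200r2 had a T-box match 149 bases and a Runx match 75 bases before the start. Cd200r3 had no match. In a global alignment the windows of Cd200r4 and Cd200r3 were identical at 133 of 176 aligned bases (75.6%), against 100 of 241 (41.5%) for Cd200r4 and Cd200r2. A match is a run of letters and does not show that a factor binds there.

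Cd200r4 was the member that separated the gates most plainly: it was high in Cd8a-alone T cells and in Ncr1 cells and low in the Cd4 and Cd8b1 gates. In the earlier Cd8a-alone sums it stood at 27.3 CPM in Nulliparous, 58.2 in Gestation, 149 in Lactation and 70.8 in HT2. In the same samples the Cd8b1 sums held 3.95, 9.57, 27.8 and 0. In the later library the 6 Cd8a-alone sums ran from 23.5 (Involution) over a median of 55.6 to 142 (GF), and the 7 Cd8b1 sums from 7.38 (Regression) over a median of 12.8 to 22.8 (GF). Within each of the 10 samples with both gates Cd200r4 was higher in Cd8a-alone cells, and in the later library the highest Cd8b1 sum lay below the lowest Cd8a-alone sum. T cells without a UMI of the 4 sorting genes stood between these gates, at 42.3 CPM in the earlier and 35.5 in the later library. They held 158 of the 260 earlier and 269 of the 518 later Cd200r4 UMIs of all T cells, more than the named gates together.

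The difference was tested on UMIs summed per sample and gate, with edgeR's quasi-likelihood test, the sample as a block and Benjamini-Hochberg adjustment over 7153 genes (sums of at least 20 cells). Only 3 of the 6 members (Pdcd1, Tox, Cd200r4) passed the filter on low counts, which a gene high in 1 gate can pass through that gate. Cd200r4 rose by 2.38 on the log2 scale from the Cd8b1 to the Cd8a-alone gate (SE 0.23, adjusted p = 1.65e-10). It was the 1 member called in this contrast, in which 11.4% of all genes tested were called. In the fit without the filter the value was 2.32, and the gate difference of Cd200r4 did not differ detectably between the libraries (later minus earlier -0.63, SE 0.63, adjusted p = 1.00 in edgeR).

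The share of cells with a UMI showed the same order. At full depth 15.4% of 499 earlier Cd8a-alone cells and 22.2% of 451 later ones had a Cd200r4 UMI, against 1.27% of 628 and 4.82% of 1389 Cd8b1 cells. B cells, which should lack the gene, showed 0.0665% and 0.400%. A B cell had a median of 901 UMIs in the earlier and 2018 in the later library, and a Cd8a-alone cell 1782 and 3247. In cells without any macrophage UMI the Cd200r4 level was 89.5 and 73.7 CPM in the Cd8a-alone gate and 5.64 and 13.6 in the Cd8b1 gate. With every cell thinned to 1000 UMIs the expected share was 6.70% in Cd8a-alone and 1.17% in Cd8b1 cells, a mean difference of 5.53 percentage points (SD 3.73, n = 10). It was higher in 10 of 10 samples (exact two-sided sign-flip permutation p = 0.00195, the smallest this design allows). It was 1 of 24 such tests, of which 5 had an exact p under 0.05. They cover the 6 chosen genes alone, so no adjusted p is given and none is called. Thinning left out 33 of the 499 and 3 of the 451 Cd8a-alone cells.

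**Figure D1:**
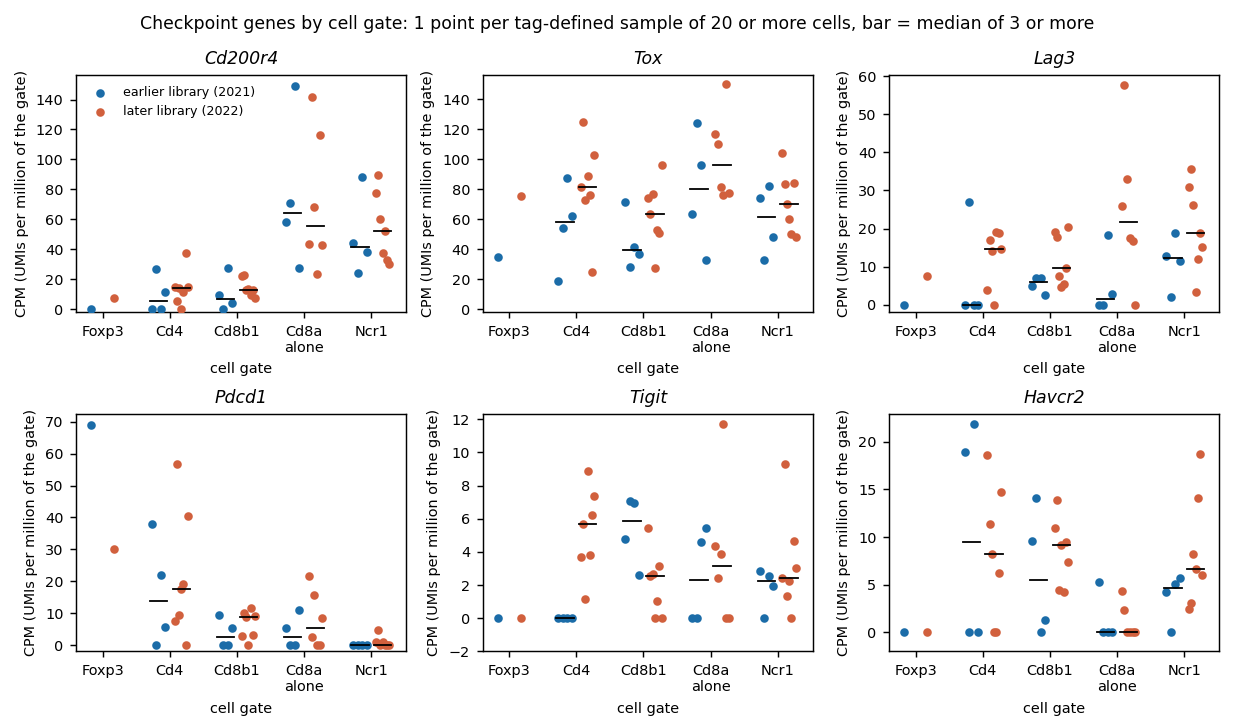
CPM (y axis, linear, own scale per panel) of the 6 genes in the 5 gates (x axis), 1 point per tag-defined sample with at least 20 cells and a bar at the median where 3 or more samples of a library are shown. Cd200r4 reaches 149 in the Cd8a-alone gate and at most 27.8 in the Cd8b1 gate, while Tigit stays at or below 11.7 in every gate.

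Cells of the Ncr1 gate, which hold NK cells and innate lymphoid cells, also carried Cd200r4. The earlier sums were 38.4 in Nulliparous, 44.3 in Gestation, 88.3 in Lactation and 24.4 CPM in HT2, and the later sums ran from 30.3 (Regression) over 52.3 to 89.7 (GF). These ranges overlapped those of the Cd8a-alone gate. The difference, Ncr1 minus Cd8a-alone, was -0.40 on the log2 scale (SE 0.18, edgeR adjusted p = 0.167), lower in 7 of 10 samples. The Cd4 and Cd8b1 gates were not told apart for Cd200r4 (log2 -0.04, SE 0.34, edgeR adjusted p = 1.00). In the Foxp3 gate it had 0 UMIs among 74763 in the earlier library, which bounds the level at 49.3 CPM, and 2 UMIs in the later library.

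Its neighbours moved with it in part. Cd200r1, the inhibitory CD200 receptor itself, rose by 2.40 on the log2 scale from the Cd8b1 to the Cd8a-alone gate (SE 0.25, edgeR adjusted p = 1.30e-09), and Cd200r2, another DAP12-paired relative, rose by 2.74 (SE 0.53, adjusted p = 2.39e-04). Tyrobp, which encodes DAP12, rose by 2.08 (SE 0.27, adjusted p = 1.24e-07). Cd200r3 held 1 earlier and 4 later UMIs in the Cd8a-alone gate and did not pass the filter. How reads that match more than 1 of these related genes were counted was not checked, so the share of each is uncertain. From Cd8a-alone to Ncr1 cells Tyrobp rose by a further 1.18 (SE 0.24, adjusted p = 4.07e-04) while Cd200r1 fell by 0.75 (SE 0.21, adjusted p = 0.0101). Cd200, the ligand of Cd200r1, fell by 1.88 from the Cd4 to the Cd8b1 gate (SE 0.47, adjusted p = 0.00736).

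**Figure D2:**
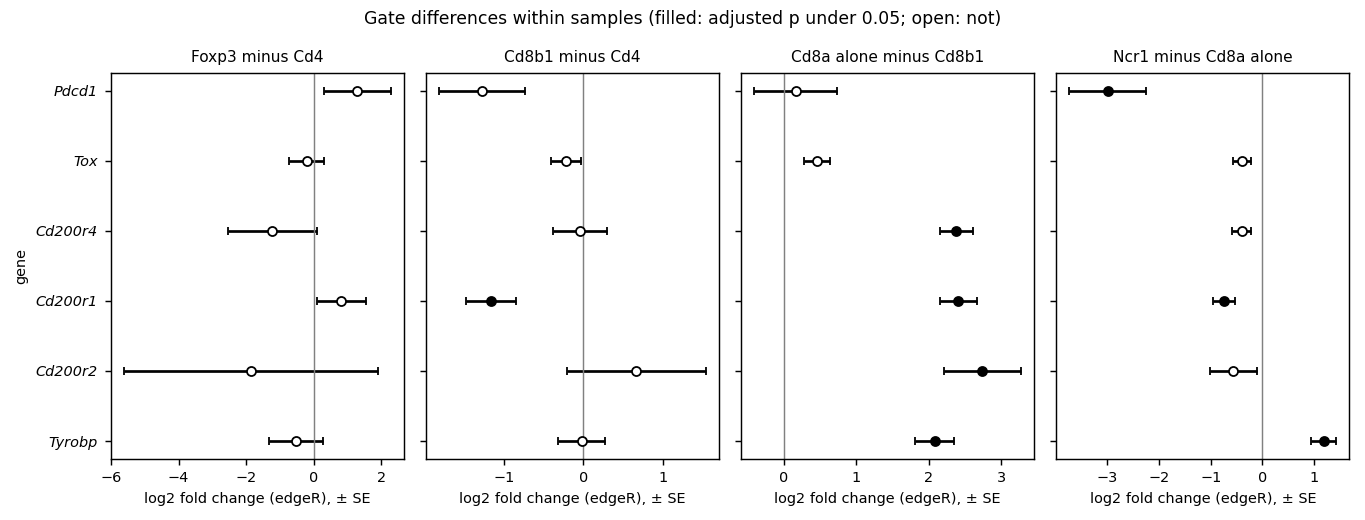
Log2 fold change with its standard error (x axis, own scale per panel) for the 3 members that passed the filter and for Cd200r1, Cd200r2 and Tyrobp (y axis) in the 4 gate contrasts, with filled points at an adjusted p under 0.05. Cd200r4, Cd200r1, Cd200r2 and Tyrobp lie between 2.08 and 2.74 in Cd8a-alone minus Cd8b1, and Pdcd1 lies at -3.0 in Ncr1 minus Cd8a-alone.

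Tox was detected in every gate and differed far less between them. Its earlier sums in the Cd8a-alone gate were 32.7 in Nulliparous, 63.5 in Gestation, 96.4 in Lactation and 124 CPM in HT2, and in the Cd8b1 gate 36.8, 71.8, 41.7 and 28.3. In the later library the Cd8a-alone sums ran from 76.3 (Involution) over 96.0 to 150 (Lactation; 27 UMIs) and the Cd8b1 sums from 27.5 (HT2) over 63.2 to 95.9 (Regression). The gates overlapped in both libraries. Tox was higher in Cd8a-alone cells in 7 of 10 samples, by 0.46 on the log2 scale (SE 0.18), and did not pass (edgeR adjusted p = 0.102). It passed in 2 of 25 alternatives. These were the fit with the later Regression sums left out (0.55, adjusted p = 0.0380) and that with at least 2 UMIs of the entry gene of each gate, Cd3e or Ncr1 (0.66, adjusted p = 0.0198).

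Toward the Ncr1 gate the Tox difference was -0.39 (SE 0.18, edgeR adjusted p = 0.160), lower in 8 of 10 samples. The thinned share showed it at 6.62% against 8.63%, lower in 9 of 10 samples (exact permutation p = 0.00586, unadjusted). Among 103 Foxp3 cells of the later library Tox stood at 118 CPM with a 95% exact Poisson interval of 87.2 to 156, against 79.7 (68.1 to 92.8) in the Cd4 gate. In the earlier library the values were 53.5 (14.6 to 137, from 4 UMIs) and 57.5 (34.1 to 90.8). These intervals pool samples and cover counting error only. Only 2 samples had at least 20 Foxp3 cells. Tox was higher in the Foxp3 than in the Cd4 gate in 1 of them and lower in 1, and the test gave -0.21 (SE 0.53, edgeR adjusted p = 0.95). B cells held 1.14 and 3.91 Tox CPM.

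**Figure D3:**
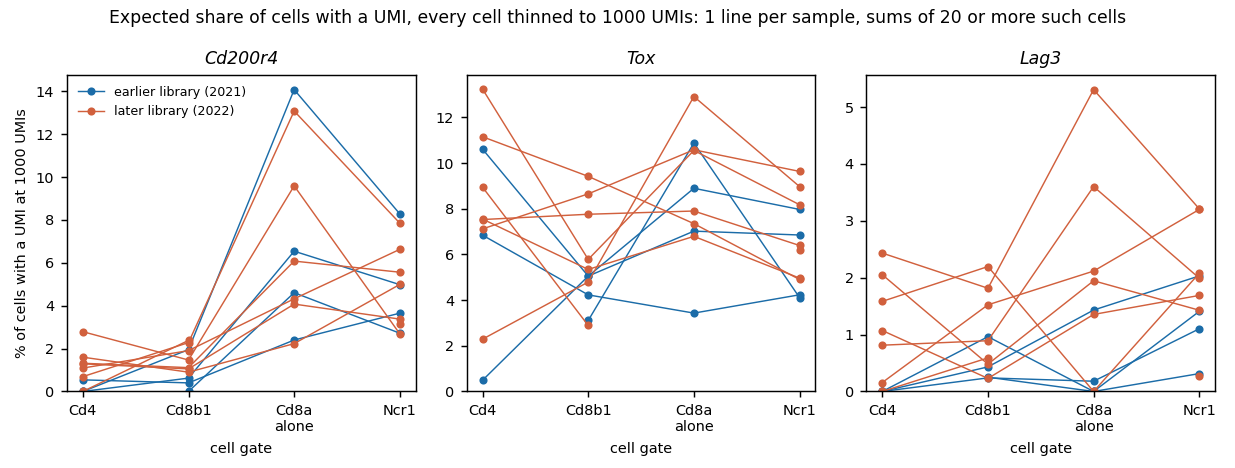
Expected share of cells with at least 1 UMI after thinning every cell to 1000 UMIs (y axis, percent) for Cd200r4, Tox and Lag3 in the Cd4, Cd8b1, Cd8a-alone and Ncr1 gates (x axis), 1 line per tag-defined sample, blue for the earlier and orange for the later library. The lines of Cd200r4 rise from Cd8b1 to Cd8a-alone cells in all 10 samples with at least 20 cells of that depth in both gates, whose means are 1.17% and 6.70%, and the lines of Tox cross.

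Pdcd1 was sparse, with its highest values in the Cd4 and Foxp3 gates. The earlier sums of the Cd4 gate were 5.64 CPM in Nulliparous, 37.8 in Gestation, 21.8 in Lactation and 0 in HT2, each from at most 2 UMIs. In the later library they ran from 0 (Lactation) over 17.7 to 56.9 (GF; 10 UMIs), and the Cd8b1 sums from 0 (HT2) over 8.81 to 11.6 (Involution; 11 UMIs). Pdcd1 was lower in the Cd8b1 than in the Cd4 gate in 9 of 11 samples, a difference that did not pass (log2 -1.27, SE 0.54, edgeR adjusted p = 0.182), and no member was called in this contrast, in which 6.82% of genes were. The 34 Foxp3 cells of the earlier library held 5 Pdcd1 UMIs in 2 cells and the 103 of the later library held 10 UMIs in 10 cells. Of the 2 samples tested, Foxp3 sums held 69.0 (earlier Nulliparous) and 30.2 (later Gestation) against 5.64 and 9.35 in the Cd4 gate (log2 1.29, SE 0.99, edgeR adjusted p = 0.712). No member was called there, with 0.419% of genes called.

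Ncr1 cells were nearly free of Pdcd1. None of 1347 such cells of the earlier library had a UMI, which allows a level of up to 1.47 CPM, and 5 UMIs in 4 of 1314 cells were found in the later library. Against the Cd8a-alone gate Pdcd1 fell by 3.0 on the log2 scale (SE 0.74, edgeR adjusted p = 0.00337), the 1 member called in a contrast in which 13.5% of genes were. The Pdcd1 fall rested on 20 UMIs in the Cd8a-alone gate of both libraries together and was seen in 5 of 10 samples, with 1 sample the other way and 4 at 0 in both gates. It did not pass in either library alone (earlier -3.57, adjusted p = 0.182; later -2.83, adjusted p = 0.0508). B cells held 0 UMIs in the earlier and 0.698 CPM in the later library.

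Lag3 was higher in Cd8a-alone and Ncr1 cells than in Cd8b1 cells in most later samples. The later Cd8a-alone sums ran from 0 (Regression) over 21.8 to 57.6 CPM (GF; 24 UMIs), the Ncr1 sums from 3.33 (HT2) over 18.7 to 35.6 (GF), and the Cd8b1 sums from 4.58 (HT2) over 9.49 to 20.3 (Regression). In the earlier library the Cd8a-alone sums were 2.73 in Nulliparous, 0 in Gestation, 18.4 in Lactation and 0 in HT2. The Cd8b1 sums there were 2.63, 4.79, 6.94 and 7.07 in the same order, from 1 or 2 UMIs each, and the Ncr1 sums 11.5, 12.9, 18.9 and 2.03. The groups overlapped. The thinned share of Lag3 in the earlier library was 0.403% in Cd8a-alone against 0.471% in Cd8b1 cells, lower in 3 of 4 samples, and in the later library 2.39% against 1.19%, higher in 5 of 6. Lag3 did not pass the filter of the test. Without the filter the Cd8a-alone minus Cd8b1 difference was 0.95 (SE 0.31, edgeR adjusted p = 0.0546) and that of Ncr1 minus Cd8a-alone -0.02 (SE 0.29, adjusted p = 1.00). Myeloid cells, gated by Csf1r, held Lag3 at 8.77 and 13.5 CPM.

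Tigit UMIs were few: 17 in the 3351 T cells of the earlier library and 48 in the 4845 of the later library. Its T cell sums ran from 1.61 to 2.95 CPM in the earlier and from 1.02 to 4.43 in the later library. In the Foxp3 gate no UMI was found in 34 and 103 cells, which allows up to 49.3 and 8.87 CPM, so a level like that of the Cd4 gate in the later library (3.80) is not excluded. The 4 Cd4 sums of the earlier library were all at 0. Without the filter no contrast of Tigit passed (the adjusted p in Ncr1 minus Cd8a-alone was 0.971 in edgeR).

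Havcr2 was found above all in myeloid cells, at 94.8 CPM in the earlier and 48.3 in the later library, against 2.48 and 6.72 in all T cells. In the Ncr1, Cd4 and Cd8b1 gates it was higher in cells with a macrophage UMI (C1qa, C1qb, Csf1r, Adgre1 or Cd68), and in the Cd8a-alone and Foxp3 gates it was not. In the Ncr1 gate of the later library, cells with such a UMI held 27 Havcr2 UMIs among 373 cells (17.9 CPM) and cells without one held 3 among 941 (0.988 CPM). In the earlier library the 2 values were 25.1 and 1.35 CPM. In the Cd4 gate they were 40.3 and 0 in the earlier and 18.5 and 4.80 in the later library, and in the Cd8b1 gate 20.9 and 0.941, then 10.1 and 5.46. The summed level of all 5 macrophage markers ranged over samples from 53.2 to 1027 CPM in the Cd4 gate and from 17.7 to 138 in the Cd8a-alone gate. Their part in the Havcr2 levels was not tested. Among Cd8a-alone cells Havcr2 had 1 UMI in 499 cells and 2 in 451, all in cells without a macrophage UMI. The Foxp3 gate held 3 Havcr2 UMIs in the later library and 0 in the earlier, again all in cells without a macrophage UMI (11.1 CPM). Havcr2 did not pass the filter. Without it the Cd8a-alone gate was lower than the Cd8b1 gate (log2 -2.42, SE 0.65, edgeR adjusted p = 0.00762, in a fit that called 4.07% of genes), and in cells without a macrophage UMI the levels of those gates were 1.04 and 0.941 in the earlier and 1.69 and 5.46 in the later library.

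**Figure D4:**
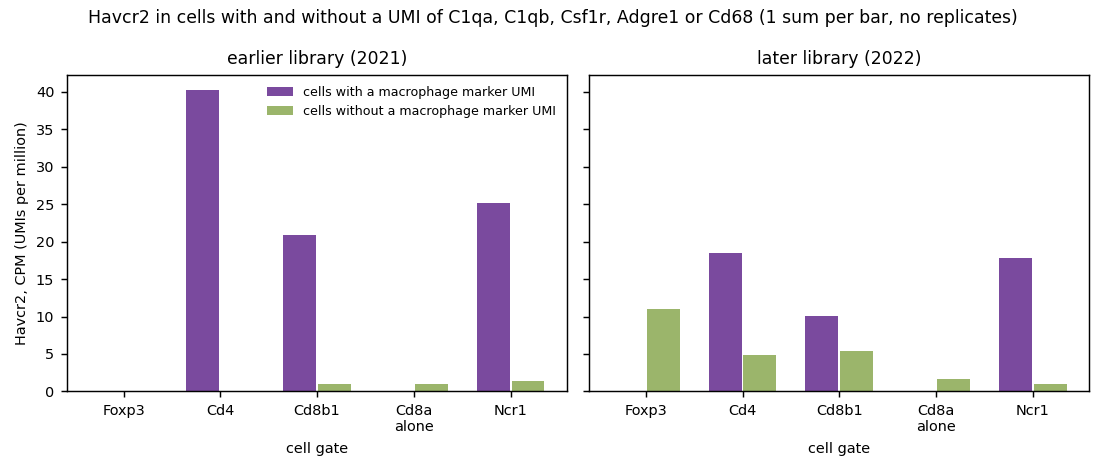
Havcr2 CPM (y axis, from 0) in the 5 gates (x axis) of the earlier (left) and later (right) library, for cells with and without a UMI of C1qa, C1qb, Csf1r, Adgre1 or Cd68, 1 sum per bar. In the Ncr1 gate the bars stand at 25.1 and 1.35 in the earlier and at 17.9 and 0.988 in the later library, and in the Cd8a-alone gate they stand at 0 for cells with such a UMI.

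Most cells showed 1 of the 6 genes or none. In the later library, 247 of 451 Cd8a-alone cells had no UMI of any member, 138 had 1 gene, 55 had 2 and 11 had at least 3, and in the earlier library 368 of 499 had none, 108 had 1, 21 had 2 and 2 had at least 3. Tox and Cd200r4 were the commonest pair there, with 44 cells in the later library and 19 in the earlier library. At 1000 UMIs per cell the pairs could be tested in the Ncr1 gate alone. Cells with a Tox UMI carried Lag3 in 3.16% and cells without in 1.93%, and Cd200r4 in 8.47% against 5.88%. Both were higher in 6 of 6 samples (exact permutation p = 0.0312 for each, the smallest possible and unadjusted, among 5 pairs tested). At 1500 UMIs per cell the Lag3 difference shrank from 1.24 to 0.33 percentage points, higher in 5 of 7 samples (exact permutation p = 0.656). The Cd200r4 difference was 2.81 against 2.58 percentage points, also higher in 5 of 7 samples (exact permutation p = 0.203).

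Between stages, Cd200r4 was higher in Lactation than in Gestation in T cells of both libraries. Over all T cells it stood at 19.6 CPM in Nulliparous, 31.4 in Gestation, 90.2 in Lactation and 17.7 in HT2 of the earlier library. In the later library it stood at 21.5 in Gestation, 48.2 in Lactation, 19.3 in Involution, 12.6 in Regression, 44.2 in Balb/c, 52.7 in GF and 17.3 in HT2. The earlier Lactation value rests on 153 UMIs and the later one on 64. Both exceeded the Gestation value of their library beyond the 95% Poisson intervals. Those intervals cover counting error only and hold no spread between animals. The difference was 1.31 on the log2 scale (SE 0.24) but did not pass over 9439 genes (edgeR adjusted p = 0.531), with 2 samples a stage, the library as a block and 1 residual degree of freedom. No gene was called in this comparison (0% of genes tested), while 3.40% stood below 0.05 before adjustment and DESeq2 called 1 gene. Cd200r4 passed in 4 of 14 alternatives. These were the fit without the filter (edgeR adjusted p = 9.09e-04, with 0.436% of genes called), doublet calls kept (0.0494), cells that carried B cell or macrophage UMIs left out (0.00415) and the tag quantile at 0.95 (5.19e-05).

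The Cd8a-alone gate made up a larger share of T cells in Lactation, 23.6% against 15.2% in Gestation in the earlier and 12.4% against 8.15% in the later library. The values over all T cells mix this share with the Cd200r4 level within each group of T cells, and the part of each was not tested. T cells with none of the 4 sorting genes, which held most Cd200r4 UMIs, stood at 33.2 in Gestation and 78.5 in Lactation of the earlier library and at 24.2 and 46.7 in the later. Within the Cd8a-alone gate Cd200r4 stood at 58.2 in Gestation and 149 in Lactation in the earlier and at 68.0 and 117 in the later library (log2 1.03, SE 0.39, edgeR adjusted p = 1.00). In the Ncr1 gate it was higher in Lactation in the earlier library (88.3 against 44.3) and lower in the later library (32.8, from 7 UMIs, against 60.3), with a fitted difference of 0.31 (SE 0.38, adjusted p = 0.998). No member was called between the stages in any gate, where 0.418% (Cd4), 0.331% (Cd8b1), 0.0431% (Cd8a-alone) and 0.0267% (Ncr1) of genes tested were. Data were also simulated, with every sum drawn from the same mean profile and a fixed assumed dispersion, which need not match the real data. In these simulated data the stage fit of the Cd8a-alone gate recovered 0 of 88 changes of 2-fold and 0 of 84 of 4-fold. In the Ncr1 gate it recovered 18 of 100 and 80 of 97. The lack of calls therefore does not show that the stages are alike.

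**Figure D5:**
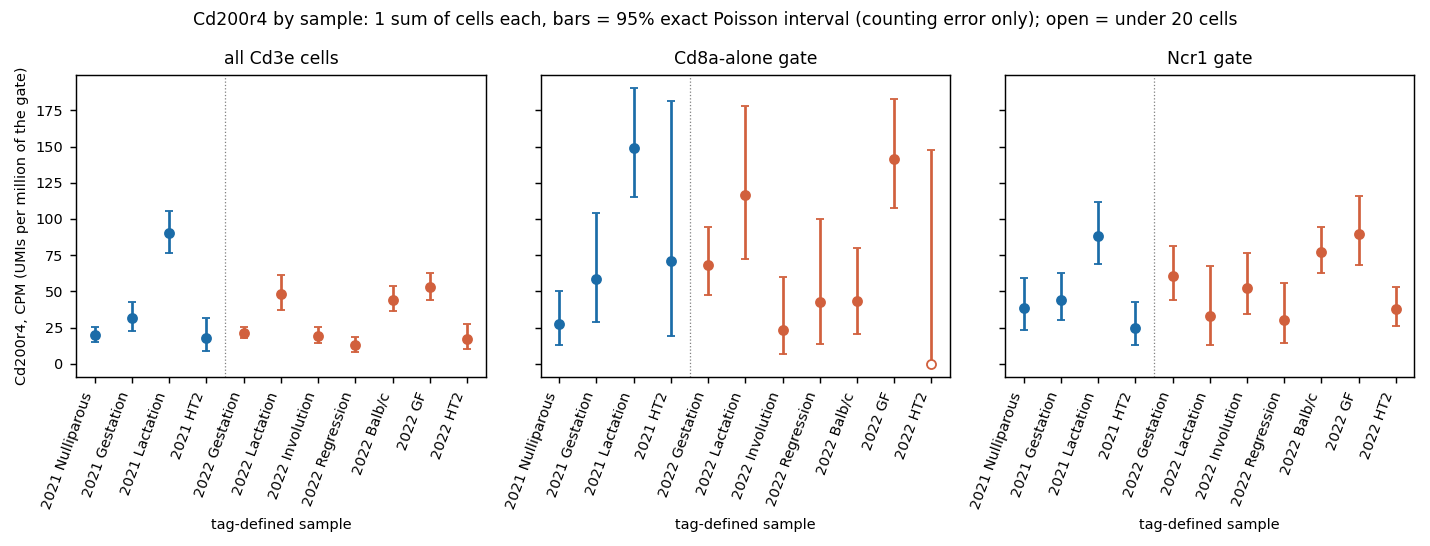
Cd200r4 CPM (y axis) in each tag-defined sample (x axis, the earlier library in blue and the later in orange) for all T cells, the Cd8a-alone gate and the Ncr1 gate, with 95% exact Poisson intervals that cover counting error only. In all T cells Lactation stands at 90.2 against 31.4 in Gestation in the earlier and at 48.2 against 21.5 in the later library, and GF of the later library stands at 52.7.

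Tox in all T cells was 57.2 in Gestation and 73.1 in Lactation of the earlier library, then 70.7 and 72.3 in the later library (log2 0.16, SE 0.23, edgeR adjusted p = 1.00). By gate it was higher in Lactation among Cd8a-alone cells (0.74, SE 0.38) and lower among Cd8b1 cells (-0.74, SE 0.41), each in both libraries and each with an adjusted p of 1.00. Lag3 in all T cells was 4.71 and 14.7 in the earlier and 11.3 and 12.1 in the later library (log2 0.66, SE 0.49, adjusted p = 1.00). Pdcd1, Tigit and Havcr2 had at most 45 UMIs in any of the 4 T cell sums and did not pass the filter on low counts. A fit that left the filter out gave log2 differences of -1.42 for Pdcd1, 0.31 for Tigit and -0.88 for Havcr2. None of these passed (edgeR adjusted p = 0.999 for each). Pdcd1 and Havcr2 were lower and Tigit was higher in Lactation, each in both libraries, but from few UMIs. The earlier and later Lactation sums held 5 and 3 UMIs of Pdcd1, 3 and 6 of Havcr2, and 5 and 4 of Tigit. Across the later samples Lag3 in all T cells was highest in GF (27.4) and Balb/c (21.1) and between 5.09 and 12.1 in the other 5. Pdcd1 was highest in Regression (14.2) and lowest in Lactation (2.26). These names have 1 sample each in the later library and their differences have no replicate check.

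Other checkpoint and costimulatory genes were read from lists. In Foxp3 minus Cd4, where 0.419% of all genes were called, of 12 other receptors tested 1 rose (Ctla4, the CTLA-4 checkpoint, 2.88) and none fell, of 7 costimulatory receptors 1 rose (Tnfrsf4, OX40, 3.10), and of 15 factors 1 rose (Ikzf2, Helios, 3.26) and 1 fell (Id2, by 2.86). The list medians were -0.50, 1.03 and 0.00, beside -0.10 over all genes tested. All are log2 fold changes at an edgeR adjusted p of at most 0.00446. In Cd8b1 minus Cd4, where 6.82% of all genes were called, 5 of 7 costimulatory receptors fell, led by Cd40lg (CD40 ligand, by 3.97), Tnfrsf4 (by 3.24), Icos (by 1.58) and Cd28 (by 1.01), and 1 rose (Cd27, 0.65). The list median was -1.01 beside 0.02 over all genes. Among other receptors 4 of 12 fell (Ctla4 by 1.55, Cd5 by 1.25, Cd200r1 by 1.16 and Btla by 1.15) and 2 rose (Cd160 1.90 and Cd226 0.55, the activating competitor of Tigit), with a median of 0.06. Among factors 6 of 15 fell, led by Maf (by 3.03), Tox2 (by 2.66), Ikzf2 (by 1.10) and Nr4a1 (by 1.02), and Eomes, a T-box factor of effector cells, rose by 3.78, with a median of -0.48. Among ligands 1 of 5 fell (Cd200) and none rose, with a median of 0.03, and among signal proteins 1 of 5 rose (the phosphatase gene Ptpn6 by 0.53, median -0.02).

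From the Cd8b1 to the Cd8a-alone gate, where 11.4% of all genes were called, 5 of 12 other receptors rose and 3 fell, with a median of 0.12 beside 0.00 over all genes. Besides Cd200r1 and Cd200r2 the rise took in Cd244a (2B4, 2.35) and Cd160 (1.32), and the fall Btla (by 1.63), Ctla4 (by 1.43) and Cd5 (by 1.13). Costimulatory Tnfrsf9 (4-1BB) rose by 2.35 and Tnfrsf18 by 0.69, while Cd28 fell by 1.20 and Cd27 by 0.50 (4 of 7 called, median -0.49). Of 15 factors 3 rose (Ikzf2 2.50, Tbx21 0.85, Nr4a2 0.66) and Tcf7, a factor of naive and memory T cells, fell by 1.20, with a median of 0.03. Of 5 ligands Lgals3 rose by 0.69, and of 5 signal proteins Tyrobp rose and Sh2d1a fell by 0.89 (median 0.33). From Cd8a-alone to Ncr1 cells, where 13.5% of all genes were called, 1 of 12 other receptors rose (Klrg1, 2.58) and 5 fell, with a median of -0.62 beside 0.00 over all genes. The fall was led by Cd5 (by 4.21), Cd96 (by 0.89), Cd200r1 and Cd160 (by 0.70). Of 15 factors with a median of 0.31, 7 went up, led by Maf (1.82), Eomes (1.59), Id2 (1.27) and Nr4a1 (0.91), and 3 went down, namely Ikzf2 (by 2.91), Id3 (by 1.68) and Tcf7 (by 0.93). Of 7 costimulatory receptors 1 rose (Tnfrsf18, 0.57) and 2 fell (Icos by 1.13, and Cd40lg, which had 0 UMIs in the Ncr1 sums; median -0.33), of 5 signal proteins Tyrobp and Sh2d1a (0.76) rose and Ptpn6 fell by 0.54 (median 0.20), and of 5 ligands none was called.

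Over the 45 sums the genes whose log2(CPM + 1) ran most closely with Cd200r4 were Cd7 (Pearson r 0.87), Klra7, an inhibitory Ly49 receptor (0.86), and Dapk2 (0.83). For Tox they were Arf3 (0.68), Ythdf3 (0.68) and Zer1 (0.63), and for Havcr2 the myeloid genes Ms4a6c (0.61), Tgfbi (0.61) and Mmp12 (0.61). For Pdcd1 they were Tnfrsf4 (0.68), Gstp3 (0.66) and Ass1 (0.66), for Lag3 Gbp5 (0.74), Cox6b1 (0.69) and Tcirg1 (0.68), and for Tigit Vps72 (0.56), Rfxap (0.53) and Sgsh (0.53). These sums share samples, libraries and depth, and the values are descriptions. Among the members themselves r was 0.53 for Lag3 with Cd200r4, 0.39 for Tox with Cd200r4 and -0.54 for Pdcd1 with Cd200r4.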

How the data were processed

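Gene and tag matrices hold raw counts of UMIs or tags per barcode, as deposited. Processing ran with Cell Ranger 6.1.0 on mm10, per the submitters' processing notes, and the earlier file header names Cell Ranger 4. The earlier matrix was deposited unfiltered, with 1347735 barcodes. The later matrix holds 21632 barcodes of at least 500 UMIs. Genes were matched by symbol, and 234 of 55487 entries with a shared symbol were left out. Cells had at least 500 UMIs, 300 genes and at most 10% mitochondrial UMIs. Tags with at least 100 counts were called with HTODemux (Seurat 5.3.0, R 4.3.3, quantile 0.99), so HT4, named Nulliparous and with 1 count in the later library, was not used there. Scrublet (scanpy 1.11.5, Python 3.11.15, expected rate 0.08) called 9.11% and 7.67% of cells, which were removed.

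UMIs were summed per sample and gate and fitted with edgeR 4.0.16 (TMM, filterByExpr, quasi-likelihood test, threshold 0.05), after the scripts were tested on simulated data. Levels are CPM, a larger scale than first planned. Intervals are 95% exact Poisson and cover counting error only. DESeq2 1.42.0 was an alternative. Thinned shares are expected shares when each cell is reduced to 1000 UMIs, and the sign-flip test runs over samples, without the planned adjustment over these genes. The genes named are the members, at most 4 genes called in each direction per list and contrast, and the 3 most alike genes of each member. RefSeq promoter windows (GRCm38.p6) matched 4 of 6 members. The members and lists were chosen with earlier results of these data known.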

Additional observations from a re-analysis of the deposited data

Results flagged for a closer look

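From Gestation to Lactation, Tox values fell in the Cd8b1 gate and rose in the Cd8a-alone and Ncr1 gates, in both libraries. In Cd8b1 cells Tox went from 71.8 to 41.7 CPM in the earlier and from 77.0 to 50.6 in the later library. Those Lactation values rest on 6 and 16 UMIs. In Cd8a-alone cells it went from 63.5 to 96.4 and from 81.6 to 150. In Ncr1 cells it went from 74.3 to 81.9 and from 69.9 to 84.2 (18 UMIs). The fitted Ncr1 difference was small beside its error (log2 0.16, SE 0.30). The Cd4 gate had no shared direction, at 18.9 and 87.3 in the earlier and 72.5 and 25.0 in the later library. Its Lactation sums held 4 UMIs each. The difference between gates was then tested in edgeR with the sample as a block, a test added after the values were seen. It was 1.47 on the log2 scale for Cd8a-alone against Cd8b1 (SE 0.46, edgeR adjusted p = 0.864 over 4718 genes, of which 0.106% were called). For Ncr1 against Cd8b1 it was 0.96 (SE 0.44, edgeR adjusted p = 0.762, with 0.0556% of genes called). Neither passed.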

How the results depend on the processing

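The rise of Cd200r4 from the Cd8b1 to the Cd8a-alone gate passed in all 24 alternatives that tested it, with log2 values from 2.23 to 2.85 (2.31 to 2.51 when 1 sample was left out). In fits on the 2 gates alone it did not pass the filter. The count of members called in that contrast was 1. It was 2 with DESeq2 and with no filter on low counts (Havcr2 added), 2 without the HT2 samples (Lag3 added), 2 with at least 2 UMIs in the gates (Tox added), 0 on the 2 gates alone and between 1 and 2 when 1 sample was left out. For Ncr1 minus Cd8a-alone the count of 1 became 2 with no filter (Havcr2) and with the tag quantile at 0.95 (Cd200r4, -0.54, adjusted p = 0.0349). It became 0 in each library alone, on the 2 gates alone and with sums of at least 5 cells, an alternative chosen after seeing the data; it was 1 with each sample left out. For Lactation minus Gestation in all T cells the count of 0 became 1 (Cd200r4) with no filter, doublet calls kept, B cell or macrophage UMIs left out and the tag quantile at 0.95, and it was 0 with each sample left out. Without the earlier Lactation sums the Cd200r4 difference was 0.70, and without the later Lactation sums 2.01. With no replicate block, that is without the library term, it was 1.48 (adjusted p = 1.00). The thinned Cd200r4 difference, Cd8a-alone minus Cd8b1, was 2.99 percentage points at 500 UMIs, 7.70 at 1500, 6.16 in the earlier and 5.11 in the later library alone, against 5.53. Differences that moved by over 1 SD were those of Foxp3 minus Cd4 at 500 UMIs (Pdcd1 2.00 from 4.06, Cd200r4 -0.21 from -0.45, 2 samples each), of Tigit in Cd8b1 minus Cd4 without the later library (0.72 from -0.12) and of Lag3 by Tox in the Ncr1 gate at 1500 UMIs (0.33). Of the 3 most alike genes, 0 to 2 stayed at a 50 CPM minimum. The cause of these changes was not tested.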
